A study of Mactra quadrangularis with 2 samples.

Results

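Glutathione, antioxidant and aldehyde or alcohol enzymes were examined in digestive glands of a clam (titled Mactra veneriformis by the submitters, with Mactra quadrangularis as the organism) after exposure to the brominated flame retardant BDE-47. The group consists of the unigenes, transcript contigs assembled without a genome, that the authors called as different and whose first Nr or Swiss-Prot match carries 1 of 17 enzyme names, from glutathione S-transferase to flavin-containing monooxygenase. There were 35 such unigenes among the 17625 called, of which 4337 had a description, and among 124752 unigenes in all. The called unigenes in the authors' deposited table reach an FDR of 0.000999 and start at a log2 ratio of 1 in either direction, so that a member's size of difference is set by the choice while its direction is not. Unigenes that were not called carry no description, and no statement is made about enzymes of these families outside the 35.

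Control clams were kept for 3 days in water holding 0.05% DMSO (v/v), a solvent, and treated clams for 3 days in water with the same DMSO content and a nominal 5 µg/L of BDE-47. Both groups were held at 16 °C and a salinity of 31, and both received DMSO. The series text describes 3 replicates of 30 clams per group with pooled glands, while the tables hold 1 library per group, so no difference below has a replicate check and each compares these 2 libraries only. Since each library mixes the RNA of many animals and of all cells of the gland, fewer cells of a type and less RNA per cell cannot be told apart.

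Glutathione is a small thiol made from glutamate, cysteine and glycine, and glutamate-cysteine ligase catalyses its first step. Glutathione S-transferases join it to electrophilic compounds, and glutathione peroxidases use it to reduce peroxides, while thioredoxin, thioredoxin reductase and peroxiredoxin form a parallel chain that carries electrons from NADPH to peroxides and protein disulfides. Superoxide dismutases turn superoxide into hydrogen peroxide, ferritin stores iron, and aldehyde and alcohol dehydrogenases, carbonyl reductases and carboxylesterases oxidise, reduce or cleave reactive carbonyls, alcohols and esters. In bivalves the digestive gland is the main organ of foreign compound metabolism, and these enzymes are widely measured there in pollution studies.

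Sequencing depth was 15.6 M fragments for control clams and 15.9 M for treated clams, and counting intervals below are exact 95% intervals that cover counting error only. Higher and lower below mean that FPKM (fragments per kilobase of unigene, scaled to library size) plus 0.1 differed by 1 or more on the log2 scale. The rule further asked for 20 or more fragments over both libraries and for a counting interval of the ratio that left out 1. By this rule 89164 unigenes past the floor divided into 12.4% higher in BDE-47, 16.2% lower and the rest, with a median log2 ratio of -0.11. The marker lists below hold called unigenes only, so that a marker differs is set by the choice, while its direction is not. Their counts stand beside a split of 36.1% higher and 63.9% lower for all called unigenes with a description that passed the rule. Markers that were not called are left out, so the lists cannot show how much of a tissue each library held. The part of other tissues in the results was not tested. Of 11 testis marker unigenes 2 were higher and 9 lower, with 428 and 840 FPKM, and of 15 ovary marker unigenes 9 were higher and 3 lower, with 20.2 and 61.5 FPKM. Of 17 shell mantle marker unigenes 13 were higher and 3 lower, with summed levels of 55.1 FPKM in the control and 1342 FPKM in BDE-47. Of 20 marker unigenes of cilia and sperm 2 were higher and 17 lower, with 214 and 108 FPKM. Of 18 unigenes on the muscle list, of myosin and titin names, 5 were higher and 12 lower, with 117 and 77.7 FPKM. Without 6 that match non-muscle or amoeba myosin, 3 were higher and 8 lower, with 55.3 and 41.4 FPKM. Of 69 blood cell marker unigenes 40 were higher and 24 lower, with 528 and 948 FPKM. Of 48 called digestive gland marker unigenes 33 were higher, 11 lower and 4 not past the rule, with a median log2 ratio of 2.78 and 7 at 0 in the control. They summed to 610 and 679 FPKM, of which a cathepsin L, a lysosomal protease (CL2966.Contig2), held 391 and 195 FPKM. The list was matched by words, and took in a neurotrypsin match and trypsins that best match copepods. Of these copepod trypsins, Unigene55748 had 0 control and 198 BDE-47 fragments and CL9824.Contig1 had 0 and 73. Of 26 called unigenes that best match a copepod, 23 had 0 fragments in the control, and they summed to 102 control and 2371 BDE-47 fragments. None of the 35 members best matched a copepod or a ciliate. One member, the carboxylesterase Unigene54242, best matched a mosquito with an Nr bit score of 77.8 and had 4 and 24 fragments. From which organism the RNA of the members came was not tested.

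Of the 35 members, 15 were higher in the BDE-47 library and 19 lower, and 1, a ferritin, stayed under the floor of 20 fragments. Of the 4077 called and described unigenes past the same rule, 36.1% were higher and 63.9% lower. By the calls of the authors' deposited table, 16 members were up and 19 down, beside 6.09% and 8.04% of all 124752 unigenes. With TMM scaling, under which the log2 scale of BDE-47 over control shifts by -0.12 and every ratio is higher, the members split into 15 higher and 12 lower. A ratio of 4-fold or more was reached by 11 of the 15 higher members and 2 of the 19 lower ones, beside 50.5% and 34.1% of the called and described unigenes past the rule. Of the 11, 8 had 0 to 15 control fragments and could be called only through a large ratio. With 100 or more fragments the counts were 3 of 7 higher and 2 of 18 lower, beside 36% and 19.1%. The 2 lower members of that size were the catalytic subunit of glutamate-cysteine ligase and a theta class glutathione S-transferase, and 11 of the lower members differed by less than 2.5-fold. The median log2 ratio of the members was -1.01, beside -1.19 over all described called unigenes. Fragments of the 35 members summed to 10624 in the control library (10423 to 10828) and to 9244 in the BDE-47 library (9057 to 9434). Their ratio was 0.852 (0.828 to 0.876). One pair of contigs that resemble extracellular superoxide dismutase carried much of that sum, and without their cluster the ratio was 0.679 (0.656 to 0.703).

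**Figure D1:**
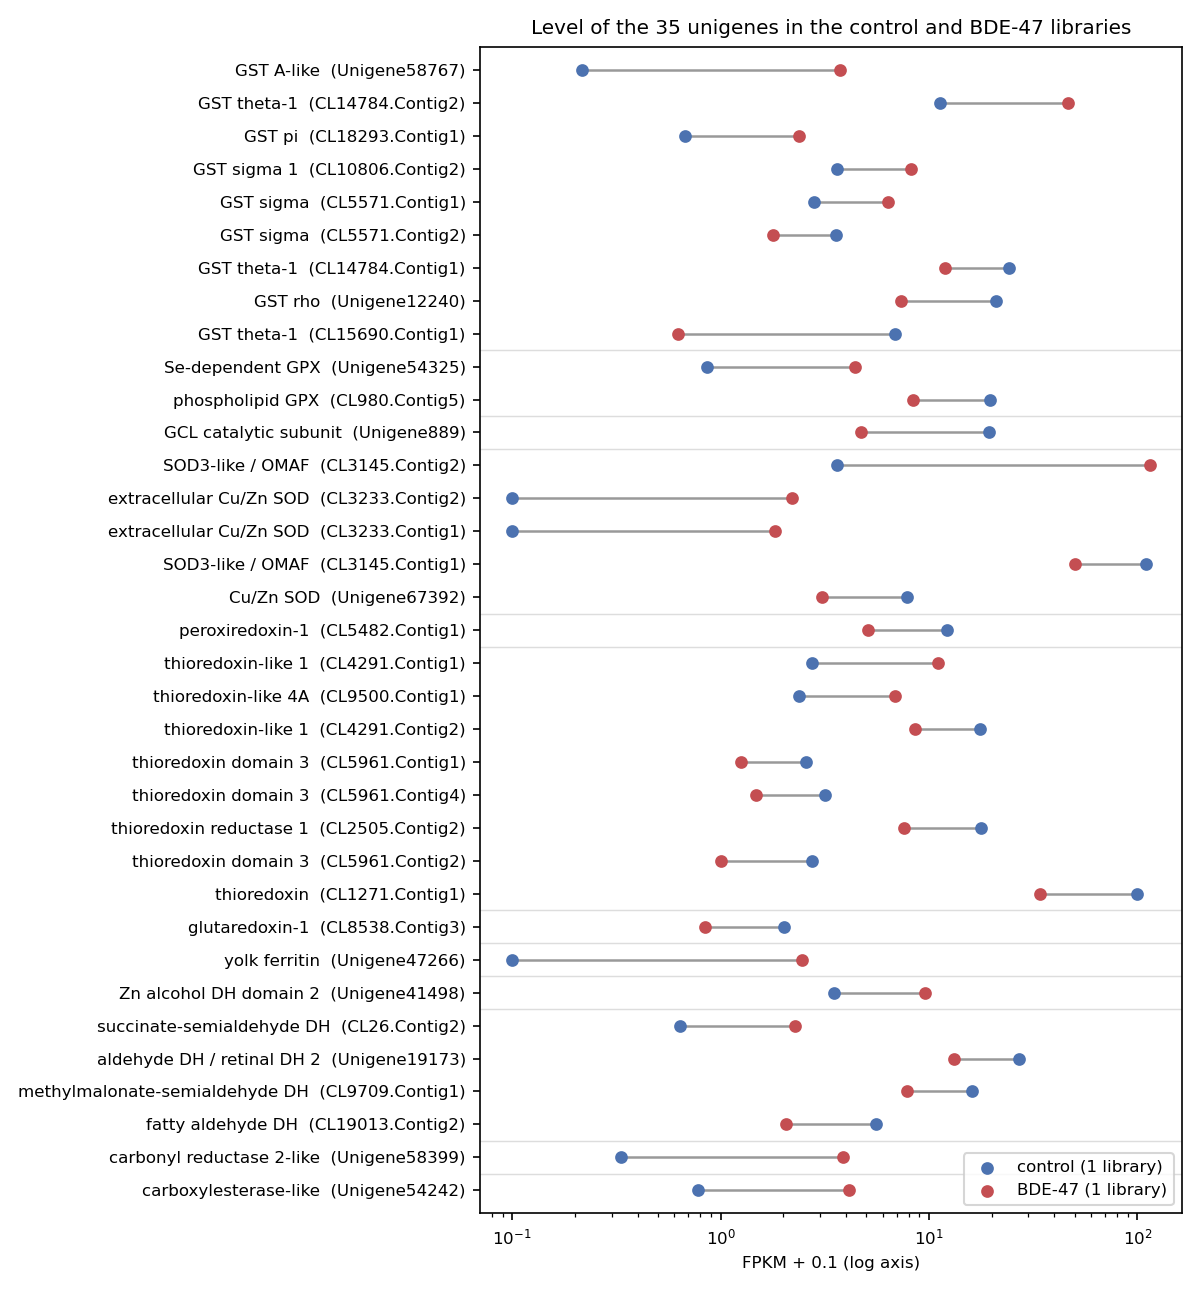
FPKM plus 0.1 on a log axis for each of the 35 unigenes in the control library (blue) and the BDE-47 library (red), 1 library per group, with a grey line joining both values and thin lines between enzyme classes. Each of the 3 unigenes at 0 in the control lies between 1.72 and 2.36 FPKM in BDE-47. The thioredoxin contig CL1271.Contig1 (99.1 to 34 FPKM) and the glutamate-cysteine ligase subunit (19.4 to 4.62 FPKM) lie lower in BDE-47.

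The first enzyme of glutathione synthesis was lower in BDE-47. Unigene889, the glutamate-cysteine ligase catalytic subunit (1980 bases, nearest entry in the mouse), had 600 control fragments (553 to 650) and 146 BDE-47 fragments (123 to 172), or 19.4 and 4.62 FPKM. This was a 4.20-fold lower level (3.50 to 5.06). It was a single unigene with no sister contig, so no other contig of a cluster offsets the difference.

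Glutathione S-transferases went both ways, with 5 of 9 unigenes higher and 4 lower. A unigene named glutathione S-transferase A after the Manila clam Ruditapes philippinarum (Unigene58767) had 1 control fragment and 32 BDE-47 fragments, and the ratio was 31.3 (5.23 to 1276). A pi class contig (CL18293.Contig1), from a class that in mammals is known for detoxifying electrophiles, had 11 and 45 fragments, 4.01-fold higher (2.04 to 8.59). Both counts are small. Sigma class enzymes, which include a prostaglandin D synthase in vertebrates, were represented by 3 contigs. CL10806.Contig2 had 56 and 133 fragments, 2.33-fold higher (1.69 to 3.24). CL5571.Contig1 had 83 and 195 fragments, 2.30-fold higher (1.77 to 3.01), whereas CL5571.Contig2 had 105 and 52, 2.06-fold lower (1.47 to 2.93). Contigs of the same sigma class cluster thus differed in direction.

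The theta class, which acts on small halogenated and epoxide substrates in mammals, also held contigs of both directions. CL14784.Contig2 had 275 control and 1170 BDE-47 fragments, or 11.2 and 46.5 FPKM, 4.17-fold higher (3.65 to 4.77). Its sister CL14784.Contig1 had 544 and 274 fragments, or 24.2 and 11.9 FPKM, 2.03-fold lower (1.75 to 2.35). Per length, CL14784.Contig1 was the more abundant in the control and CL14784.Contig2 in BDE-47. Another theta contig (CL15690.Contig1) had 114 and 9 fragments, 12.9-fold lower (6.58 to 29.0), the largest lower ratio among the members. A rho class unigene (Unigene12240), of a class described in fish and molluscs, had 428 and 151 fragments, 2.89-fold lower (2.40 to 3.51). Summed over the 9 unigenes, transferase fragments numbered 1617 for the control and 2061 for BDE-47, with a ratio of 1.25 (1.17 to 1.33), and CL14784.Contig2 alone held 39.3% of both libraries' transferase fragments.

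The remaining enzymes that use glutathione were a pair of peroxidases and a glutaredoxin. A phospholipid hydroperoxide glutathione peroxidase contig (CL980.Contig5), of the type that reduces lipid peroxides in membranes, had 424 control and 185 BDE-47 fragments, 2.34-fold lower (1.96 to 2.80). It held 27.9% of the cluster's control fragments. The direction turned in the cluster's sum, with a log2 ratio of 0.29, since CL980.Contig1 was 1.98-fold higher (1.73 to 2.28) and CL980.Contig2 1.72-fold higher (1.46 to 2.02). A selenium-dependent glutathione peroxidase (Unigene54325) had 5 and 29 fragments, 5.68-fold higher (2.17 to 18.8). Glutaredoxin-1 (CL8538.Contig3), which removes glutathione from protein thiols, had 56 and 22 fragments, 2.60-fold lower (1.56 to 4.47). No called unigene carried the name glutathione reductase.

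The called contigs of thioredoxin, thioredoxin reductase and peroxiredoxin were each lower in BDE-47, while sister contigs of the reductase and of peroxiredoxin, not called, were higher in ratio. A contig of thioredoxin itself (CL1271.Contig1) had 1217 control fragments (1150 to 1287) and 426 BDE-47 fragments, or 99.1 and 34 FPKM, 2.92-fold lower (2.61 to 3.27). Its sister CL1271.Contig2, not called, carried most of the cluster, with 3192 and 2621 fragments, 1.24-fold lower (1.18 to 1.31). Thioredoxin reductase (CL2505.Contig2), which recharges thioredoxin with NADPH, had 1012 and 438 fragments, 2.36-fold lower (2.11 to 2.65). Peroxiredoxin-1 (CL5482.Contig1), named thioredoxin peroxidase in its Nr entry, had 224 and 94 fragments, 2.43-fold lower (1.90 to 3.13). The sister CL2505.Contig1 had 784 and 1090 fragments, a 1.36-fold higher level (1.24 to 1.49), and the sister CL5482.Contig2 had 156 and 226, 1.42-fold higher (1.15 to 1.75). With all contigs of their clusters summed, the log2 ratios were -0.56 for thioredoxin (-0.63 to -0.50), -0.30 for the reductase (-0.39 to -0.21) and -0.28 for peroxiredoxin (-0.50 to -0.06). Summing thus left each of the 3 below 1 in ratio but none past the rule.

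Other unigenes that matched the word thioredoxin belong to proteins of other roles. Thioredoxin-like protein 1, which binds the proteasome in mammals, was found as a pair of contigs. CL4291.Contig1 had 47 and 199 fragments, 4.15-fold higher (3.00 to 5.83), and CL4291.Contig2 had 314 and 155, 2.07-fold lower (1.70 to 2.52). Thioredoxin-like protein 4A (CL9500.Contig1), a splicing protein of the U5 particle, had 36 and 110 fragments, 2.99-fold higher (2.04 to 4.49). Thioredoxin domain-containing protein 3, a component of the outer dynein arms of cilia and sperm tails, was lower in 3 contigs of 1 cluster. CL5961.Contig4 had 115 and 53 fragments (2.22-fold lower, 1.59 to 3.13), CL5961.Contig1 had 91 and 43 (2.16-fold, 1.49 to 3.18) and CL5961.Contig2 had 88 and 31 (2.90-fold, 1.91 to 4.52). Called markers of cilia and sperm were lower in 17 of 20 unigenes, as given above, and the relation to these contigs was not tested. CL5961.Contig5, which is no member, carried most of the cluster, with 536 and 489 fragments, and its interval on the log2 scale included 0 (-0.34 to 0.02).

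Superoxide dismutase names covered 5 unigenes of unlike behaviour. A Cu/Zn superoxide dismutase whose best Nr match is from Mactra quadrangularis itself (Unigene67392) had 159 control and 62 BDE-47 fragments, 2.62-fold lower (1.94 to 3.57). An extracellular Cu/Zn superoxide dismutase named after the freshwater mussel Hyriopsis cumingii had 0 fragments in the control in both of its contigs. CL3233.Contig2 had 49 fragments in BDE-47 and CL3233.Contig1 had 39, at least 16.0-fold and 12.7-fold higher against a floor of 3 fragments in the control library. Neither contig was thus detected in the control library, where a count of 0 allows up to 3 fragments.

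The highest fragment count among the members came from a cluster with the rat's extracellular superoxide dismutase as its Swiss-Prot match and a scallop oocyte maturation arresting factor as its Nr match. The bit scores were 73.6 and 104.8, below the members' median Nr score given further on. CL3145.Contig2 had 77 control fragments (60.8 to 96.2) and 2566 BDE-47 fragments, or 3.52 and 115 FPKM, 32.6-fold higher (26 to 41.5). CL3145.Contig1 had 2796 and 1302 fragments, or 110 and 50 FPKM, 2.19-fold lower (2.05 to 2.34). The contig that was the more abundant in one library was thus the less abundant in the other. A yolk ferritin (Unigene47266) had 0 and 13 fragments, at least 4.24-fold higher against the same floor of 3 fragments. No called unigene was named catalase or metallothionein.

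Of 4 aldehyde dehydrogenase unigenes 1 was higher and 3 lower, beside 63.9% lower over the called and described unigenes past the rule. An aldehyde dehydrogenase of a scallop, with a retinal dehydrogenase as its Swiss-Prot match (Unigene19173), had 710 and 354 fragments, 2.05-fold lower (1.80 to 2.33). Methylmalonate-semialdehyde dehydrogenase (CL9709.Contig1), a mitochondrial enzyme of valine breakdown, had 790 and 392 fragments, 2.06-fold lower (1.82 to 2.33). Fatty aldehyde dehydrogenase (CL19013.Contig2), which oxidises long-chain aldehydes, had 126 and 46 fragments, 2.80-fold lower (1.98 to 4.01). Succinate-semialdehyde dehydrogenase (CL26.Contig2), of GABA breakdown, had 15 and 62 fragments, 4.05-fold higher (2.28 to 7.66). Unigene19173 and CL9709.Contig1 lie so near the limit of the rule that neither passed it with TMM scaling. The sister CL19013.Contig1 had 55 and 94 fragments, 1.67-fold higher (1.19 to 2.38), and the sister CL9709.Contig3 had 456 and 425. Summed by cluster, the log2 ratios were -0.40 for CL19013, -0.64 for CL9709 and 0.41 for CL26, none past the rule.

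The called unigenes of the alcohol dehydrogenase, carbonyl reductase and carboxylesterase names, 1 for each name, were higher. A zinc-binding alcohol dehydrogenase domain protein (Unigene41498) had 97 and 276 fragments, or 3.39 and 9.45 FPKM, 2.79-fold higher (2.20 to 3.55). A unigene that resembles carbonyl reductase 2 in Swiss-Prot and L-xylulose reductase in Nr (Unigene58399) had 4 and 67 fragments, 16.4-fold higher (6.12 to 61.9). A short unigene of 375 bases named carboxylesterase after the mosquito Aedes aegypti (Unigene54242) had 4 and 24 fragments, 5.88-fold higher (2.02 to 23.3), and its Swiss-Prot match is a neuroligin, a cell adhesion protein of the same fold. With 4 control fragments each, Unigene58399 and Unigene54242 could be called only through the BDE-47 library, so their direction says nothing about their classes. No called unigene was named epoxide hydrolase or flavin-containing monooxygenase.

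Contigs of the same cluster often went in opposite directions. The 35 members comprised 10 single unigenes and 25 contigs of 18 clusters, a cluster being a set of contigs that the assembly grouped by sequence. The tables do not say whether contigs of a cluster are alleles, splice forms or gene copies, and how fragments matching several of them were assigned is a step that the sources used here do not give. Of 6 clusters with at least 2 members, 4 held both a higher and a lower one. Over the whole table, 1503 of 2482 clusters with at least 2 contigs past the rule (60.6%) held both directions, and 45.5% of 321 clusters did so when only described called contigs were counted. Among the 11 clusters with 1 member and other contigs, 6 held a contig whose interval lay on the other side of 1 from the member. This criterion is looser than the rule and has no share over all clusters beside it, so the count describes these clusters only.

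Summed over all contigs, 1 of the 18 clusters was higher, 1 lower and 16 did not pass the rule. The higher one was the extracellular Cu/Zn superoxide dismutase CL3233, with 0 and 88 fragments, and the lower one CL15690, which has a single contig in the table. Of all 18359 clusters past the floor, 8.44% were higher and 9.02% lower when summed, and among the 1778 clusters holding a described called contig past the rule 64.7% did not pass when summed. The 2 theta transferase contigs of CL14784 summed to a log2 ratio of 0.79 (0.66 to 0.91), and the thioredoxin-like 1 contigs of CL4291 to -0.06 (-0.27 to 0.16). Other sums that fell outside the interval of their named contigs were 0.63 for sigma transferase 1 (CL10806), 0.20 for CL5571, 0.08 for the pi transferase (CL18293), 0.41 for CL3145 and 0.60 for thioredoxin-like 4A (CL9500). The succinate-semialdehyde dehydrogenase cluster CL26 summed to 0.41, and the sums were -0.24 for glutaredoxin-1 (CL8538), -0.40 for CL19013, -0.47 for CL5961 and -0.64 for CL9709. For the phospholipid glutathione peroxidase CL980, the sum of 6 contigs gave 0.29 (0.19 to 0.39), opposite to its member. In that cluster CL980.Contig1, with 316 and 640 fragments and a log2 ratio of 0.99 (0.79 to 1.19), lay just outside the authors' limit of 1, while the nearest member inside it, CL14784.Contig1, had -1.02.

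**Figure D2:**
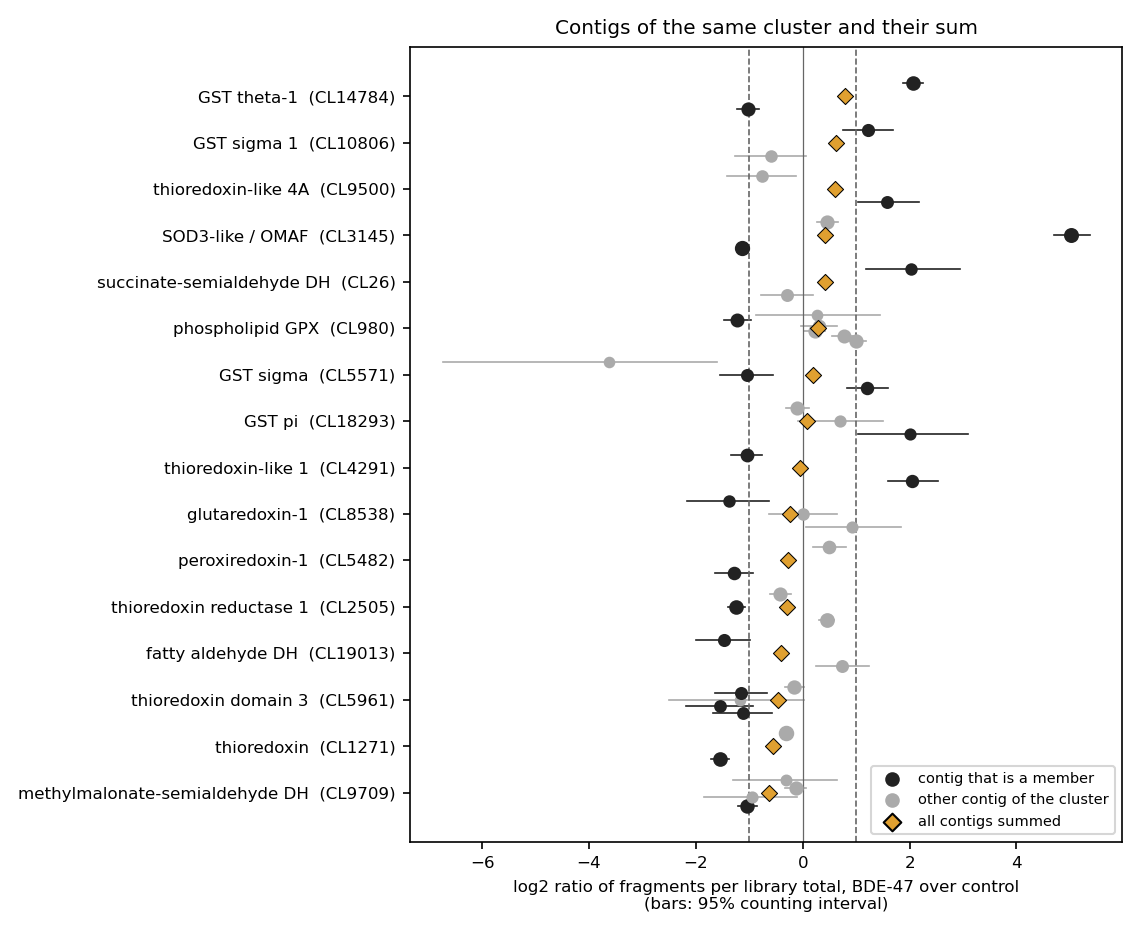
Log2 ratio of fragments per library total, BDE-47 over control, for each contig with fragments in both libraries, from 16 clusters of several contigs (black for members, grey for the others, larger points for more fragments), with 95% counting intervals and a diamond for all contigs summed. Members lie beyond the dashed lines at -1 and 1, and all 16 diamonds lie between them.

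Shares of contigs in the 4 clusters with members of both directions are given with exact binomial intervals. Of the fragments of CL3145, contig 2 held 2.39% in the control (1.89 to 2.97) and 58.8% in BDE-47 (57.3 to 60.2), contig 1 held 86.6% and 29.8%, and contig 3 held 11.0% and 11.4%. The theta transferase CL14784.Contig2 made up 33.6% of its cluster in the control (30.3 to 36.9) and 81.0% in BDE-47 (78.9 to 83.0). For thioredoxin-like 1, CL4291.Contig1 made up 13% (9.73 to 16.9) and 56.2% (50.9 to 61.5). For the sigma transferase, CL5571.Contig1 made up 39.2% (32.5 to 46.1) and 78.3% (72.7 to 83.3). In each of these clusters the leading contig of the control library was not that of the BDE-47 library. These clusters were picked because they hold members of both directions, which makes such a change likely. Among the other clusters that hold members, the leading contig also changed in CL9500, CL19013, CL2505, CL5482, CL8538, CL980 and CL9709. It stayed the same in CL1271, CL10806, CL18293, CL26 and CL5961. No share over all clusters stands beside this, so it describes these clusters only. In CL9500 contig 1 held 38.3% and 75.9%, and in CL19013 contig 2 held 69.6% and 32.9%. In CL1271, by contrast, contig 2 led in both libraries, with 72.4% and 86%.

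**Figure D3:**
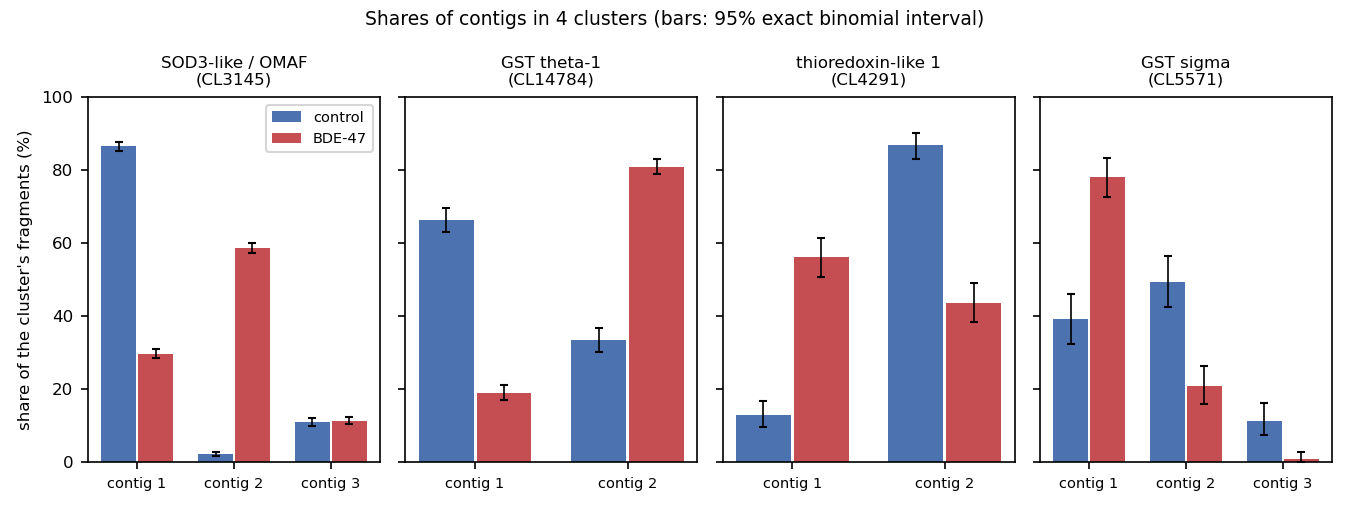
Share of a cluster's fragments held by each of its contigs in the control (blue) and BDE-47 (red) libraries for the 4 clusters with members of both directions, with 95% exact binomial intervals. In CL3145 contig 2 stands at 2.39% in the control and 58.8% in BDE-47, while contig 3 stands at 11.0% and 11.4%.

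Direction went with the number of fragments. Of the 10 members with fewer than 100 fragments, 8 were higher and 1 lower, whereas among the other 25 members, with 100 or more, 7 were higher and 18 lower. Among described called unigenes past the rule, 37.2% of those with fewer than 100 fragments were higher, 33.7% of those with 100 to 1000 and 45.6% of those with 1000 or more. The 8 higher members of low count had 0 to 15 fragments in the control and 24 to 67 in BDE-47, and 6 of them best matched a bivalve. A unigene with so few fragments in one library could be called only through the other, so these counts are a description of the list only.

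**Figure D4:**
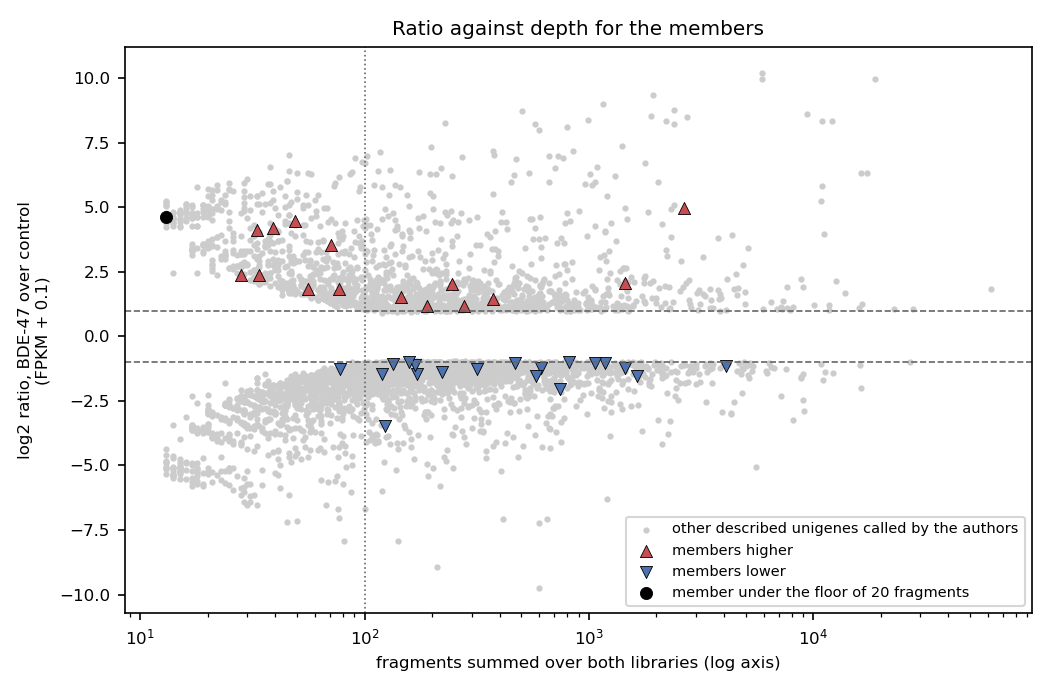
Log2 ratio of FPKM plus 0.1, BDE-47 over control, against fragments summed over both libraries (log axis) for the members (triangles up for higher, down for lower, a circle for the ferritin under the floor) and for the other described unigenes that the authors called (grey), with dashed lines at -1 and 1 and a dotted line at 100 fragments. Left of the dotted line 8 members are higher and 1 lower, and right of it 7 are higher and 18 lower.

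The database matches and lengths of the members are given as a description only. Both may have entered the choice, through the names and through the fragments needed for a call. The best Nr match was the oyster Crassostrea gigas in 11 of 35 members (31.4%), beside 49.2% for its genus among 4312 called unigenes with an Nr match, and 26 members in all best matched a bivalve. The median Nr bit score, a measure of the quality of a database match, was 264 for the members and 116 for all described called unigenes, and their median lengths were 1423 and 1210 bases. Higher members were shorter and less well matched than lower ones, with median lengths of 1234 and 1634 bases and median bit scores of 180 and 343. The name by which members were chosen was carried by both databases in 24 of them, by Nr alone in 4 and by Swiss-Prot alone in 7.

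Other genes of the same pathways were counted from lists of names, again among called unigenes only. Of 9 unigenes of glutathione turnover 2 were higher and 7 lower, or 2 and 4 without 3 protein transglutaminases matched by a shared word. Gamma-glutamyltranspeptidase 1, which breaks down glutathione outside the cell, was 2.60-fold lower in CL13635.Contig3 (1672 and 656 fragments) and 8.40-fold lower in CL13635.Contig1 (395 and 48). Its cluster summed to a log2 ratio of -0.96. S-formylglutathione hydrolase, of formaldehyde removal, had 62 and 138 fragments in CL10928.Contig2 but 161 and 37 in CL10928.Contig1, with a cluster log2 ratio of -0.38. Hydroxyacylglutathione hydrolase, of methylglyoxal removal, was split in the same way, with 113 and 311 fragments in CL13197.Contig3 and 257 and 90 in CL13197.Contig2. Both clusters thus held contigs of both directions, like the 4 clusters of members.

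The only called unigene of NADPH supply, glucose-6-phosphate dehydrogenase (CL5685.Contig1), had 81 and 34 fragments, 2.43-fold lower (1.61 to 3.75), with a cluster log2 ratio of -0.62. Of 4 unigenes of redox sensing and repair, 1 was higher and 3 lower. Sulfiredoxin (CL11085.Contig3), which repairs overoxidised peroxiredoxin, had 18 and 74 fragments, 4.03-fold higher (2.38 to 7.16), with a cluster log2 ratio of 0.50. Lower were selenocysteine lyase (Unigene67223, 877 and 265 fragments), selenoprotein O (CL19296.Contig2, 151 and 73) and a unigene resembling KEAP1, the sensor that restrains the antioxidant regulator NRF2 in mammals (CL18940.Contig1, 89 and 27). The clusters of selenoprotein O and of the KEAP1-like unigene summed to log2 ratios of -0.22 and -0.44, neither past the rule, and selenocysteine lyase is a single unigene. Other reductases and oxidases numbered 8 higher, 6 lower and 3 not past the rule, or 7, 6 and 2 without an NADH dehydrogenase subunit and a polyamine oxidase matched by a shared word.

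Unigenes that make or use peroxide numbered 6 higher and 4 lower. All 3 dual oxidase unigenes and a dual oxidase maturation factor, of the enzyme that makes hydrogen peroxide at epithelial surfaces, were among the higher. The most abundant, CL13272.Contig3, had 3233 control and 10638 BDE-47 fragments, or 37.9 and 122 FPKM, 3.22-fold higher (3.10 to 3.35), and its cluster summed to a log2 ratio of 0.83. The maturation factor (Unigene22781) had 64 and 252 fragments, 3.86-fold higher (2.92 to 5.16). Also higher were the chorion peroxidase matches Unigene47374, with 0 and 50 fragments, and Unigene48665, with 1 and 68. With so few control fragments, both could be called only through the BDE-47 library. The 4 lower ones all matched peroxidasin in Swiss-Prot, a peroxidase of the extracellular matrix, with ratios from 2.18-fold lower in Unigene8630 to 11.2-fold lower in Unigene68588.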

How the data were processed

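Libraries were made from poly-T selected mRNA with random priming, per the labels' protocols. The submitters' processing notes name CASAVA 1.5, while the sources used here do not give the assembler, aligner, counter or test. For 124752 unigenes the authors' tables, per the file headers, give raw fragment counts, FPKM, a log2 ratio of FPKM, a p-value and an FDR, all as deposited. A second deposited table adds Nr and Swiss-Prot matches with a bit score for the 17625 unigenes they called. FPKM recomputed from the counts differed from the deposited values by at most 5e-05.

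Ratios are of fragments per library total, with exact conditional binomial (Clopper-Pearson) 95% intervals, and single counts have exact Poisson intervals. Both cover counting error only, since PCR fragments without molecular identifiers are not independent molecules. With 1 library per group no test was made. A count of 0 allows up to 3 fragments, or 0.486 FPKM in the control and 0.476 FPKM in BDE-47 at the median unigene length of 395 bases. The size rule was tested on simulated data with Poisson counting error only, with folds set in unigenes of at least 100 fragments. That simulation cannot show how the rule behaves under spread between libraries, or how it recovers folds at fewer fragments. Classes follow the order of the 17 names, each member with at least 100 fragments is named, and so are those of classes with at most 4 members. The other members are named too, which was chosen after their values were seen. Members and lists were chosen with earlier results of these data known. TMM factors came from edgeR 4.0.16 over unigenes with at least 20 fragments, and other steps used Python 3.11.15 and scipy 1.17.1. Shares at 4-fold, of oyster matches and of non-muscle myosin were added after the data were seen.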

Additional observations from a re-analysis of the deposited data

How the results depend on the processing

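The 15 higher members numbered 7 with a floor of 100 fragments, 9 with a limit of 2 on the log2 scale and 6 with contigs summed by cluster. The 19 lower members numbered 12 with TMM scaling, 10 with 1 added to FPKM in place of 0.1, 2 with the limit of 2, 5 with contigs summed by cluster and 12 where Nr and Swiss-Prot had to match the same word. The 7 lower members lost with TMM scaling had ratios of 2.03-fold to 2.22-fold lower. The ratio of summed fragments, 0.852, was 0.927 with TMM scaling, 0.923 with contigs summed by cluster and 0.679 without cluster CL3145, a choice made after the data were seen. Summing clusters turned the log2 ratio of 5 named contigs, to 0.20 for CL5571.Contig2, 0.79 for CL14784.Contig1, 0.29 for CL980.Contig5, 0.41 for CL3145.Contig1 and -0.06 for CL4291.Contig1, by the construction of the sum. Under the other settings run, both counts stayed within 1.5 times their values, among them 10 higher and 14 lower without 10 members whose names belong to other proteins, which was also chosen after the data were seen. No paired analysis was possible because each group has 1 library. For the same reason no library could be left out. Members with fewer than 100 fragments have wide intervals, and only the sampling of fragments, not the spread between pools of clams, is covered.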
